A study of Mus musculus with 4 samples.

Results

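The tubulin genes and the genes of the tubulin tyrosine ligase-like enzymes (Ttll) were described in whole mouse testis with and without Adad2. The members were all genes of the deposited table whose symbol starts with Tuba, Tubb, Tubg, Tubd, Tube or Ttll, which gave 38 of 26068 named entries: 8 alpha-tubulins, 8 beta-tubulins, 2 gamma-tubulins, 5 gamma-tubulin complex proteins (Tubgcp), 1 delta-tubulin and 1 epsilon-tubulin (Tubd1 and Tube1), and 13 Ttll genes. RNA sequencing was done on testes of 24-day-old male B6D2F1 mice, 2 libraries from wild type and 2 from animals homozygous for the Adad2 knockout, with no treatment named in the labels. ADAD2 is a protein of male germ cells that binds double-stranded RNA and carries an adenosine deaminase-like domain. By its title, the series concerns piRNA biogenesis and spermiogenesis, the reshaping of round spermatids into sperm. The labels do not say which part of the gene was deleted or whether replicates are separate animals, so p-values reflect no more than the variation among these 4 samples, part of which may be technical.

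Alpha- and beta-tubulin form the dimers from which microtubules are built, and gamma-tubulin with the Tubgcp proteins makes the ring on which new microtubules start. Spermatids depend on microtubules in the manchette, a transient skirt around the elongating nucleus, and in the axoneme of the sperm tail. Ttll enzymes add side chains of glutamate or glycine to the tails of tubulin, modifications that are dense on the sperm axoneme.

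Levels are given as log2 RPKM, which is reads per kilobase of gene scaled to library depth, on a log2 scale. Genes whose 4 libraries averaged 0 or more on this scale, which is 1 RPKM, were tested. That held for 32 of the 38 members. The lowest tested member was Tubb2a at a mean of 0.88, and the nearest member below the limit was Tubg2 at -1.03. Differences are knockout minus wild type, tested with limma and adjusted by the Benjamini-Hochberg method over all 13414 genes tested, and "fell" or "rose" is used only at an adjusted p under 0.05.

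In all, 7 of the 32 tested members fell and 0 rose, and the other 25 did not pass the threshold. Among all genes tested, 8.36% were called, 7.15% lower and 1.22% higher, beside 21.9% of the tested members. At an unadjusted p under 0.05, 11 members were lower and 7 higher. The members that fell were 5 Ttll genes (Ttll1, Ttll7, Ttll8, Ttll9 and Ttll10), the alpha-tubulin Tuba4a and the beta-tubulin Tubb6. The median change was 0.01 over the tested members and 0.14 over all genes tested, and 16 members had a change below 0 and 16 above. The knockout libraries lay below both wild type libraries for 11 tested members, lay above both for 12 and overlapped them for 9. Across all genes tested 63.2% did not overlap, 16.8% with the knockout below and 46.4% with the knockout above. All 7 calls were lost without wild type replicate 1, and 2 of them (Tuba4a and Tubb6) were still made without wild type replicate 2. Without knockout replicate 1 or 2, the change of each of the 7 stayed below 0. It had to, because both knockout libraries lay below both wild type libraries for each of them. The spread then came from the wild type libraries alone.

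**Figure D1:**
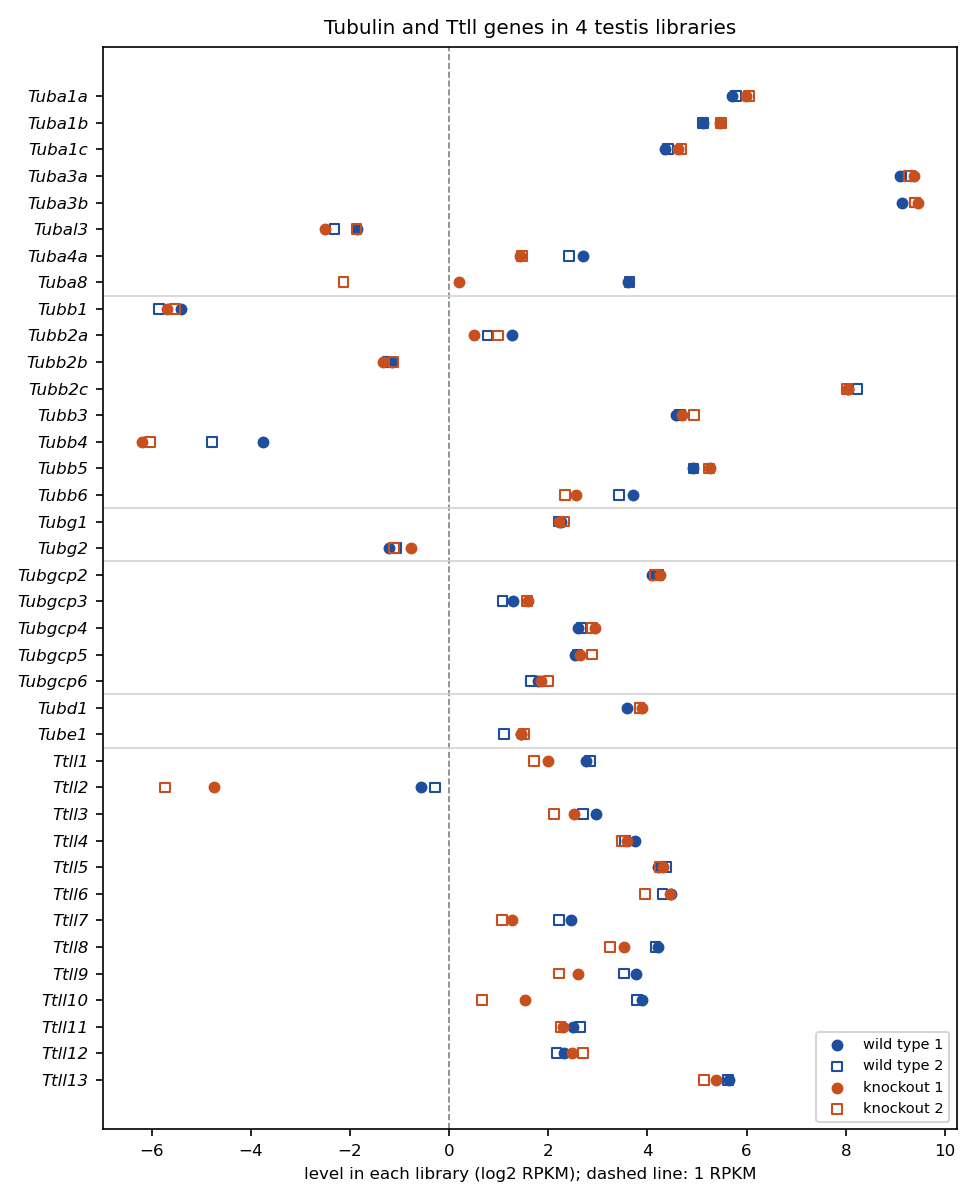
Level of each of the 38 members (log2 RPKM, horizontal axis) in the 4 libraries, with wild type in blue and knockout in orange, and circles for replicate 1 and squares for replicate 2. Tuba3a, Tuba3b and Tubb2c lie at 8.03 or above in all libraries, and Tuba8 and Ttll2 show the widest gaps between the groups.

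The libraries held an estimated 29400000 to 36900000 reads each. Adad2 itself was at 4.66 and 4.47 log2 RPKM in wild type and 3.73 and 3.30 in the knockout, lower but still measured. Marker genes of elongating spermatids (Prm1, Prm2, Tnp1, Tnp2, Akap4 and Odf1) summed to 736 to 768 RPKM in wild type and 32.4 to 62.4 RPKM in the knockout, and 5 of 6 fell. Markers of round spermatids and the acrosome summed to 262 to 264 RPKM against 157 to 184 RPKM, and 3 of 6 fell. Markers of pachytene spermatocytes summed to 1795 to 2079 RPKM against 2142 to 2247 RPKM, with 1 of 6 lower and 1 higher. Tex101 rose from 7.66 and 7.85 log2 RPKM to 8.86 and 8.92, and Pgk2 fell from 7.14 and 7.12 to 6.66 and 6.36. Ldhc, the most abundant of the 6, overlapped at 9.80 and 10.05 against 9.98 and 9.81, so the sums do not describe every marker. Sertoli cell markers summed to 85.6 to 86.3 RPKM against 103 to 107 RPKM, with 0 of 5 called. In whole-testis RNA, fewer spermatids and less RNA in each spermatid cannot be told apart, and the part of cell composition in the changes below was not tested. Knockout replicate 2 was the lower of the pair for 21 of the 32 tested members, for 55.9% of all genes tested, and for 6 of the 7 members that fell.

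The glycylases, which put glycine chains on tubulin, held the largest decrease past the threshold. Of 3 members 2 fell, beside 7.15% of all genes tested. All 3 had knockout libraries below both wild type libraries, beside 16.8% of all genes tested. Ttll10, which lengthens glycine chains, was at 3.89 and 3.79 log2 RPKM in wild type and at 1.53 and 0.66 in the knockout. The groups were far apart, and knockout replicate 2 was the lower of the knockout pair. Ttll10 was 6.71-fold lower, with a change of -2.75 (SE 0.30, 95% confidence interval -3.52 to -1.97, n = 2 per group, limma adjusted p = 0.00709). Gm13648 overlaps Ttll10 by 6630 bases on the same strand in the table, so some reads may be assigned to either gene. Gm13648 was at -2.73 and -3.24 in wild type and -2.49 and -2.18 in the knockout. Ttll8, which starts glycine chains, was at 4.21 and 4.16 in wild type and at 3.54 and 3.24 in the knockout, 1.74-fold lower (change -0.80, SE 0.12, limma adjusted p = 0.00497). Ttll3, the other enzyme that starts glycine chains, was at 2.97 and 2.71 in wild type and 2.53 and 2.12 in the knockout. Its change of -0.51 was not past the threshold (95% confidence interval -0.89 to -0.13, limma adjusted p = 0.112), although the groups did not overlap. Ttll3 shares 1189 bases with Arpc4 on the same strand in the table, so part of its reads may be assigned to either gene. Ttll10 lies on the minus strand of chromosome 4 from 155408949 to 155433453, and Ttll8 on the minus strand of chromosome 15 from 88721063 to 88784848 (mm9, table coordinates).

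The glutamylases, which add glutamate chains, split. Of 8 tested members 3 fell (Ttll1, Ttll7 and Ttll9) and 5 were not called, while the change was below 0 for all 8 (median -0.34). Among all genes tested 7.15% fell, and the median change was 0.14. Ttll9, a glutamylase of motile cilia and the sperm tail, was at 3.77 and 3.53 log2 RPKM in wild type and 2.61 and 2.22 in the knockout. Its groups did not overlap. The change was -1.24 (SE 0.15, limma adjusted p = 0.00251), a 2.36-fold lower level. Gm14199, a gene on the opposite strand that overlaps Ttll9 by 1615 bases, was at 2.64 and 2.27 in wild type and 1.46 and 1.18 in the knockout. Whether strand was used in counting is not given in the sources used here, so reads from Ttll9 and Gm14199 may not have been told apart. Ttll7, best known as a glutamylase of beta-tubulin in neurons, was at 2.46 and 2.21 in wild type and 1.27 and 1.07 in the knockout. It was 2.25-fold lower (change -1.17, SE 0.15, limma adjusted p = 0.00214). The 4 neuronal marker genes checked summed to 2.95 to 3.19 RPKM in wild type and 2.42 to 2.46 RPKM in the knockout, and their part in the result was not tested. Mtap2 was at 0.78 and 0.41 in wild type and -0.48 and -0.75 in the knockout, and Elavl3 at 0.53 and 0.64 against 0.64 and 0.86. Dcx was at -6.58 and -7.28 against -4.12 and -4.84, and Stmn2 at -5.85 and -4.14 against -3.65 and -5.96, so the 4 did not go one way. Dcx and Stmn2 were not tested and rest on few reads, so their directions are uncertain. Dcx had about 4 and 3 estimated reads in wild type and 24 and 13 in the knockout. Stmn2 had about 3 and 12 against 15 and 3. Ttll1, the catalytic subunit of a tubulin polyglutamylase complex, was at 2.77 and 2.84 in wild type and 1.99 and 1.72 in the knockout. It was 1.93-fold lower (change -0.95, SE 0.13, limma adjusted p = 0.00309). In mm9 Ttll9 occupies 152788221 to 152834218 on chromosome 2 and Ttll7 146515331 to 146646973 on chromosome 3, both on the plus strand, and Ttll1 occupies 83314202 to 83341323 on the minus strand of chromosome 15.

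The other glutamylases were not called. Ttll13 was the most abundant Ttll gene, at 5.65 and 5.63 log2 RPKM in wild type and 5.39 and 5.14 in the knockout. Its change was -0.37 (95% confidence interval -0.64 to -0.10, limma adjusted p = 0.0993). Ttll5, a glutamylase known to be needed for sperm tail structure, stood at 4.22 and 4.38 in wild type and 4.32 and 4.24 in the knockout. The groups overlapped, and the interval of its change ran from -0.26 to 0.23. Ttll6, a glutamylase of cilia, changed by -0.18 with an interval from -0.60 to 0.24, and its lowest library was knockout replicate 2 at 3.96. For Ttll4 the interval was -0.37 to 0.15. For Ttll11 it was -0.56 to -0.03, with an adjusted p of 0.153 in limma.

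Ttll12 was the only tested Ttll gene with a change above 0. It was at 2.32 and 2.17 log2 RPKM in wild type and 2.48 and 2.70 in the knockout, a change of 0.35 (95% confidence interval 0.05 to 0.64, limma adjusted p = 0.143). Ttll1, which fell, lies 64.2 kb from Ttll12 on the same strand of chromosome 15.

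Ttll2, a poorly characterised family member, was below the filter and was not tested in the main analysis. Its level in log2 RPKM was -0.57 and -0.29 in wild type and -4.74 and -5.73 in the knockout. From the value of a single read, these levels correspond to about 33 and 49 reads in the wild type libraries, 2 reads in knockout replicate 1 and none in knockout replicate 2, where the table holds the 0.9 of a read that stands for 0. Over the summed libraries, 82 reads against 2 at their depths gave a ratio of 38.1 (95% exact binomial interval 10.2 to 320), which covers counting error only. With no filter, when all 26068 named entries were tested, Ttll2 was past the threshold (limma adjusted p = 0.00936).

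The starts of 4 Ttll genes that fell are shown. These genes were chosen by that call in these data, and shared regulation was not tested. The starts of Ttll1 and Tubb6 were not analysed here. RefSeq windows (GRCm38.p6) were found for 32 of the 38 members, in 33 windows, and for 5 of the 7 that fell. Printed are the 150 bases before the start on the gene's strand, for Ttll10 at chr4:156050818-156050967 (minus), Ttll9 at chr2:152962335-152962484 (plus), Ttll8 at chr15:88954419-88954568 (minus) and Ttll7 at chr3:146852217-146852366 (plus). Tuba8, described below, was not called. For it only the 30 bases at positions -50 to -21, around the letters in capitals, are shown (chr6:121210684-121210713, plus). The Gencode annotation starts the first exon of Tuba8 inside the window, so part of that window may be transcribed. Capitals mark a match to the short site of the RFX factors of ciliary genes (GTTGCC), a MYB site (CAACTG), or the short core of the cAMP response element (TGACG), each on either strand.
Ttll10: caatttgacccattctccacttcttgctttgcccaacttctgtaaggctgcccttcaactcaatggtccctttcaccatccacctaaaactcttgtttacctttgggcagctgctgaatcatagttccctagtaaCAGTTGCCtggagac
Ttll9: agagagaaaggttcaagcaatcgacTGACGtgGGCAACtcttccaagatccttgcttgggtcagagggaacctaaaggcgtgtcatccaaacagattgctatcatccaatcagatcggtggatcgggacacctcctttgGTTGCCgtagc
Ttll8: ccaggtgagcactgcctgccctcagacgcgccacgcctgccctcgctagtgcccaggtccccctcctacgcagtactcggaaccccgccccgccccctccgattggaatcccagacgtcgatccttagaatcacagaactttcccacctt
Ttll7: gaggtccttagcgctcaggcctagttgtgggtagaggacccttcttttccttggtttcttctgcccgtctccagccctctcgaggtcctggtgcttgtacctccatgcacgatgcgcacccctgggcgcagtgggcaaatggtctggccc
Tuba8: ctgtgatgctgcagGGCAACTGctggccca

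In the 250 bases before the start, the letters of the short RFX site were found in 10.4% of all 32851 windows and in 7 of 33 member windows. They stood in 3 of the 5 windows of members that fell (Ttll8, Ttll9 and Ttll10). The other members with these letters, Ttll3, Ttll5, Tuba1c and Tuba8, were not called. The match of Ttll8 lies before the stretch printed. In Ttll10 and Tuba8 this match overlaps the MYB match, whose letters stood in 11.1% of all windows, 5 member windows and 1 window of a member that fell. TGACG was found in 17.8% of all windows, 9 member windows and 2 windows of members that fell (Ttll9 and Tuba4a). The full element TGACGTCA, which contains it, was found in 1.55% of all windows, in 1 member window (Tubb2a) and in 0 of those that fell. These are matches of letters, not measured binding.

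**Figure D2:**
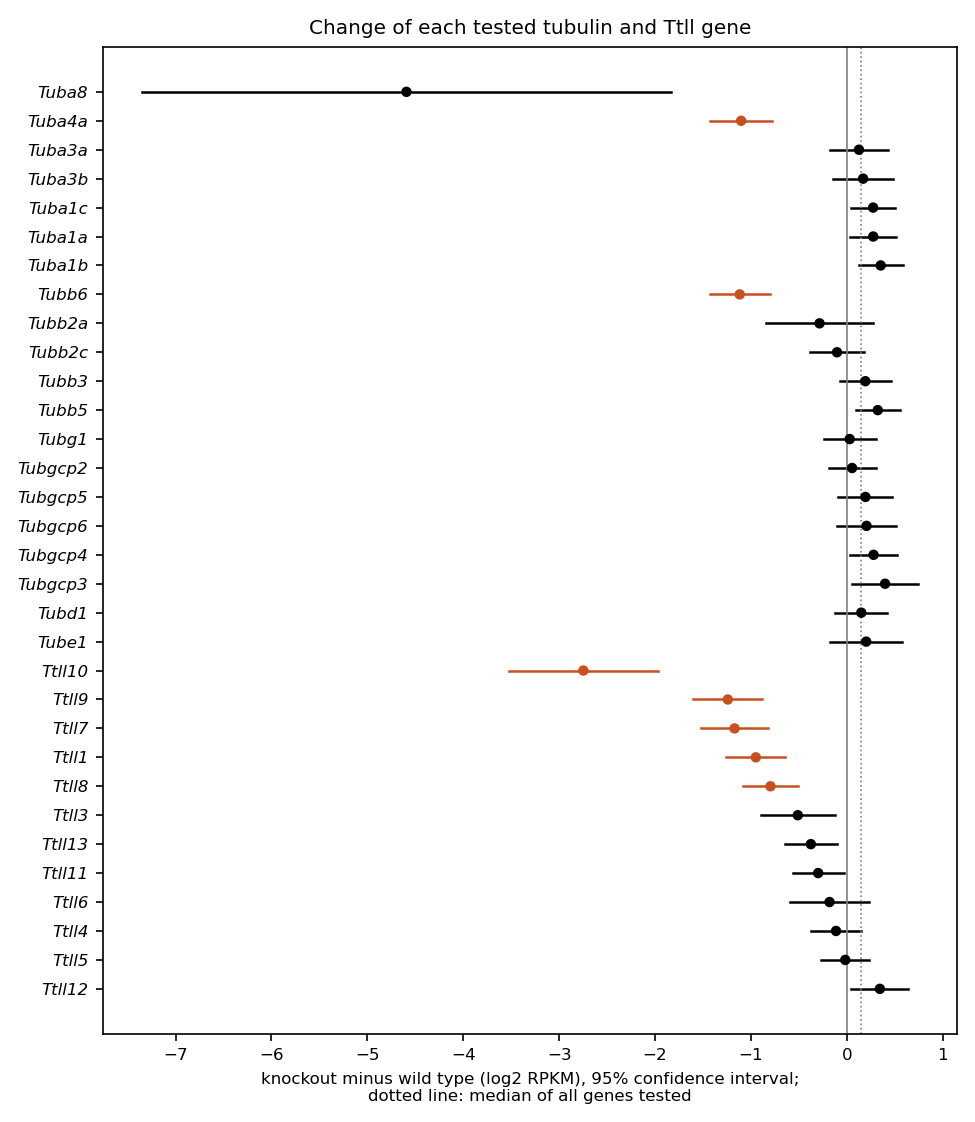
Change of each of the 32 tested members (knockout minus wild type, log2 RPKM, horizontal axis) with its 95% confidence interval, grouped as alpha, beta, gamma, Tubgcp, delta and epsilon, and Ttll, with the members that fell in orange. Tuba8 has the largest change, -4.59, and the widest interval, from -7.35 to -1.83, while the members that fell lie between -2.75 and -0.80.

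Among the alpha-tubulins the pool was made up almost wholly of Tuba3a and Tuba3b, the testis alpha-tubulins, which encode the same protein. Together they were 89.8% and 91.0% of the summed alpha-tubulin RPKM in wild type and 90.9% and 90.3% in the knockout. Tuba3a had levels of 9.10 and 9.31 in wild type and 9.38 and 9.28 in the knockout, with overlapping groups. Tuba3b stood at 9.12 and 9.39 in wild type and 9.46 and 9.40 in the knockout, so that the groups were only just apart. Neither was called (95% confidence intervals of the change -0.17 to 0.43 and -0.14 to 0.48). As near-identical copies they may share reads, so their separate levels are uncertain. The summed alpha-tubulin level was 1233 and 1433 RPKM in wild type and 1506 and 1437 RPKM in the knockout.

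Tuba8, an alpha-tubulin of divergent sequence, had the largest difference of any tested member. It was at 3.61 and 3.64 log2 RPKM in wild type and at 0.20 and -2.13 in the knockout. The wild type libraries were nearly equal, and both knockout libraries were lower, with about 85.3 and 15.2 estimated reads against 837 and 1040. The mean change was -4.59, or 24.1-fold, but the knockout libraries differed from each other by more than those of any other tested member, and the change was not past the threshold (SE 0.91, limma adjusted p = 0.096). It was past the threshold on the log2(RPKM + 1) scale (adjusted p = 0.00134, change -3.04), after quantile normalization (0.00264), and in limma without trend and robust estimation (0.0123). It missed the threshold with no filter (0.0651), with equal library medians (0.142), and without wild type replicate 1 (0.144) or 2 (0.117). Without knockout replicate 1 the change was -5.75 and without knockout replicate 2 it was -3.43. Both were past the threshold, but the spread then came from the nearly equal wild type libraries alone. All 6 elongating spermatid markers were also lower in knockout replicate 2 than in knockout replicate 1. The gap was widest for Tnp2 (3.27 and 1.23) and narrowest for Akap4 (3.57 and 2.95), and its bearing on Tuba8 was not tested. Gm15856 overlaps Tuba8 by 2462 bases on the opposite strand and was at 1.87 and 1.89 in wild type and -1.94 and -4.10 in the knockout, so the same limit on strand applies. The mm9 position of Tuba8 is chromosome 6, plus strand, 121160752 to 121176872. Its share of the summed alpha-tubulin RPKM was 0.993% and 0.869% in wild type and 0.0761% and 0.0159% in the knockout.

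Tuba4a, an alpha-tubulin whose gene does not encode the final tyrosine that most alpha-tubulins carry, fell. It was at 2.70 and 2.41 log2 RPKM in wild type and 1.44 and 1.47 in the knockout. The groups did not overlap, and the knockout libraries were closer to each other than those of wild type. The change was -1.10 (SE 0.14, 95% confidence interval -1.42 to -0.78, limma adjusted p = 0.00211), a 2.15-fold lower level. Stk16 overlaps it by 633 bases on the opposite strand and stood at 3.73 and 3.65 in wild type and 3.94 and 3.77 in the knockout. Tuba4a lies on the minus strand of chromosome 1 from 75211549 to 75215828 (mm9).

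The widely expressed alpha-tubulins Tuba1a, Tuba1b and Tuba1c, which lie within one stretch of chromosome 15, all had knockout libraries above both wild type libraries and were not called. Tuba1a was at 5.70 and 5.78 log2 RPKM in wild type and 5.99 and 6.05 in the knockout. Tuba1b was at 5.13 and 5.11 against 5.47 and 5.48, with a change of 0.35 (95% confidence interval 0.12 to 0.59) that missed the threshold (limma adjusted p = 0.0741) but passed it with quantile normalization (0.0268). Tuba1c was at 4.35 and 4.41 against 4.62 and 4.69. These changes, 0.28, 0.35 and 0.28, stand beside the median of 0.14 over all genes tested, of which 46.4% had the knockout above. The remaining alpha-tubulin, Tubal3, was below the filter at -2.50 to -1.85 in the 4 libraries.

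Among the beta-tubulins Tubb2c (now named Tubb4b), a main beta-tubulin of ciliary axonemes, made up 78.9% and 81.5% of the summed beta-tubulin RPKM in wild type and 78.5% and 77.5% in the knockout. It was at 8.03 and 8.24 log2 RPKM in wild type and 8.04 and 8.03 in the knockout, with overlapping groups. The interval of its change ran from -0.38 to 0.18. The summed beta-tubulin level was 332 and 371 RPKM in wild type and 335 and 337 RPKM in the knockout. For alpha and beta alike, the most abundant genes were not among those that fell. Fam166a, which overlaps Tubb2c by 121 bases on the opposite strand, was at 5.24 and 5.20 in wild type and 4.31 and 4.09 in the knockout.

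Tubb6 was the only beta-tubulin that fell. It was at 3.71 and 3.42 log2 RPKM in wild type and 2.56 and 2.34 in the knockout, with no overlap between the groups. It was 2.17-fold lower, with a change of -1.12 (SE 0.14, 95% confidence interval -1.43 to -0.80, limma adjusted p = 0.00172). Its share of the summed beta-tubulin RPKM was 3.95% and 2.89% in wild type and 1.76% and 1.50% in the knockout.

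Tubb5, a beta-tubulin of dividing and somatic cells, was at 4.92 and 4.93 log2 RPKM in wild type and 5.26 and 5.23 in the knockout. Its change was 0.32 (95% confidence interval 0.09 to 0.55) and was not past the threshold (limma adjusted p = 0.0943, and 0.0391 after quantile normalization). Tubb3, a beta-tubulin of neurons that Sertoli cells also express, was at 4.58 and 4.66 against 4.70 and 4.93, with an interval from -0.08 to 0.46. Gm20388 overlaps it on the same strand along its whole length in the table, so the 2 entries may share reads. Tubb2a was at 1.28 and 0.77 against 0.50 and 0.98, with overlapping groups. The low beta-tubulins were not tested: Tubb2b, close in sequence to Tubb2a, at -1.34 to -1.12, Tubb4 (now named Tubb4a) at -6.20 to -3.75, and Tubb1, the platelet beta-tubulin, at -5.85 to -5.41. For Tubb4 these were about 5 and 3 estimated reads in wild type and 1 in each knockout library, and for Tubb1 at most 1 read in any library.

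**Figure D3:**
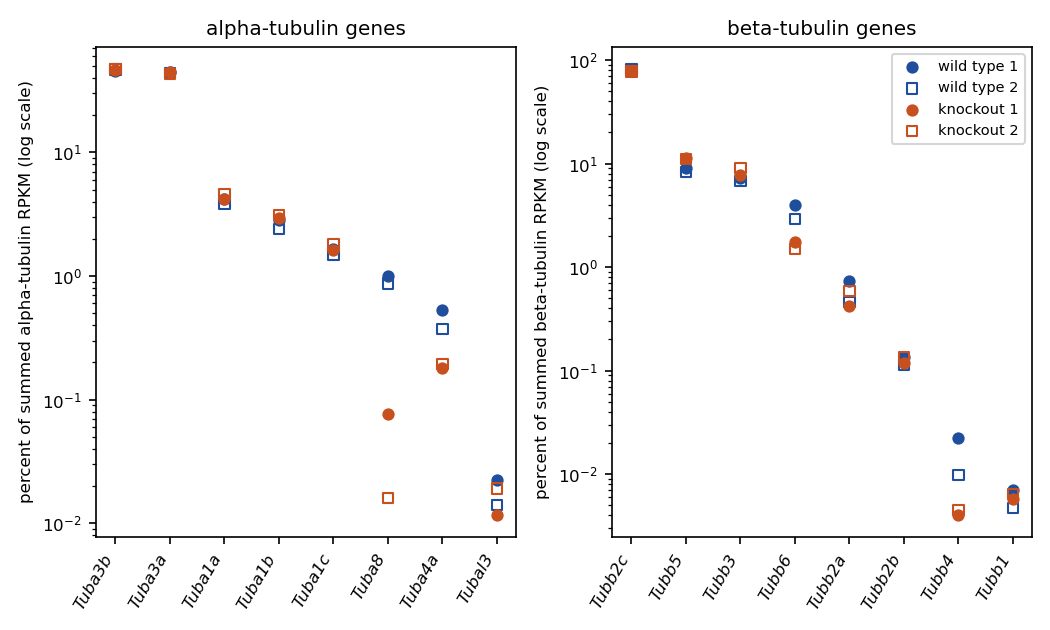
Share of each alpha-tubulin gene (left) and beta-tubulin gene (right) in the summed RPKM of its kind, in percent on a log scale, for the 4 libraries (wild type blue, knockout orange, circles replicate 1, squares replicate 2). Tuba3a, Tuba3b and Tubb2c lead in all 4 libraries, and the knockout share of Tuba8 lies at 0.0159% and 0.0761% below wild type shares of 0.869% and 0.993%.

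The genes of microtubule nucleation were not called. Tubg1, the main gamma-tubulin, was at 2.26 and 2.21 log2 RPKM in wild type and 2.22 and 2.32 in the knockout, with an interval of the change from -0.24 to 0.30. Tubg2, which lies 29.5 kb from Tubg1 on chromosome 11, was below the filter at -1.21 and -1.06 in wild type and -0.77 and -1.11 in the knockout. Of the 5 gamma-tubulin complex proteins 0 were called, all 5 had a change above 0, and 4 had knockout libraries above both wild type libraries, with a median change of 0.21. Among all genes tested 46.4% had the knockout above both wild type libraries, and the median change was 0.14. Tubgcp2, the most abundant of them, was at 4.09 and 4.22 against 4.26 and 4.16, with an interval from -0.19 to 0.30. Tubgcp3, its partner in the small complex, was at 1.28 and 1.08 against 1.59 and 1.57, a change of 0.40 (95% confidence interval 0.05 to 0.75, limma adjusted p = 0.144). Tubgcp4, Tubgcp5 and Tubgcp6, which occur in the full ring, changed by 0.28, 0.19 and 0.21.

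Delta- and epsilon-tubulin, which serve the triplet microtubules of centrioles, were not called. Tubd1 was at 3.58 and 3.84 log2 RPKM in wild type and 3.88 and 3.84 in the knockout, with a change of 0.15 (95% confidence interval -0.12 to 0.42). Tube1 was at 1.44 and 1.11 against 1.45 and 1.52, with an interval from -0.18 to 0.58. Wild type replicate 1 and knockout replicate 1 stood almost level.

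Other genes that modify, fold, cut or bind tubulin were taken from a list of 49 genes, of which 44 reached the filter. Of these 3 fell and 1 rose, which is 9.09% called beside 8.36% of all genes tested, with a median change of 0.04. Vash2, a carboxypeptidase that removes the final tyrosine of alpha-tubulin, fell from 3.63 and 3.26 log2 RPKM in wild type to 2.24 and 2.12 in the knockout (2.41-fold, limma adjusted p = 0.00117). Its partner Svbp, listed as Ccdc23, was not called, with a change of -0.25. Ttl, the ligase that puts the tyrosine back, was below the filter, at -1.32 to -0.90 in the 4 libraries. Of the 5 tested deglutamylases, which shorten glutamate chains, Agbl4 fell from 1.71 and 1.92 to 1.28 and 1.02 (1.59-fold, limma adjusted p = 0.0398). Agbl4 missed the threshold with no filter (adjusted p = 0.11), without either wild type library (0.197 and 0.241) and without knockout replicate 2 (0.0568). The most abundant deglutamylase, Agbl5, changed by -0.08, and Agtpbp1 by -0.03.

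Clip1, a protein of growing microtubule ends, fell from 3.54 and 3.38 log2 RPKM in wild type to 2.63 and 2.49 in the knockout (1.87-fold, limma adjusted p = 0.00205). Sirt2, a deacetylase of tubulin and other proteins, rose from 4.34 and 4.43 to 5.20 and 5.07 (1.68-fold, limma adjusted p = 0.00325). The groups did not overlap for Vash2, Agbl4, Clip1 or Sirt2, which also held for 63.2% of all genes tested. The acetyltransferase Atat1 changed by -0.51 and the deacetylase Hdac6 by 0.39, neither past the threshold (limma adjusted p = 0.134 and 0.112). The 4 partners of the polyglutamylase complex that Ttll1 belongs to, the 7 folding cofactors, the 7 tested severing genes, the 6 gamma-tubulin ring partners and the 3 manchette genes held 0 called genes. Without wild type replicate 1 Vash2 (adjusted p = 0.0703), Clip1 (0.0883) and Sirt2 (0.0798) missed the threshold, and without wild type replicate 2 Clip1 (0.0515) and Sirt2 (0.0532) did.

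**Figure D4:**
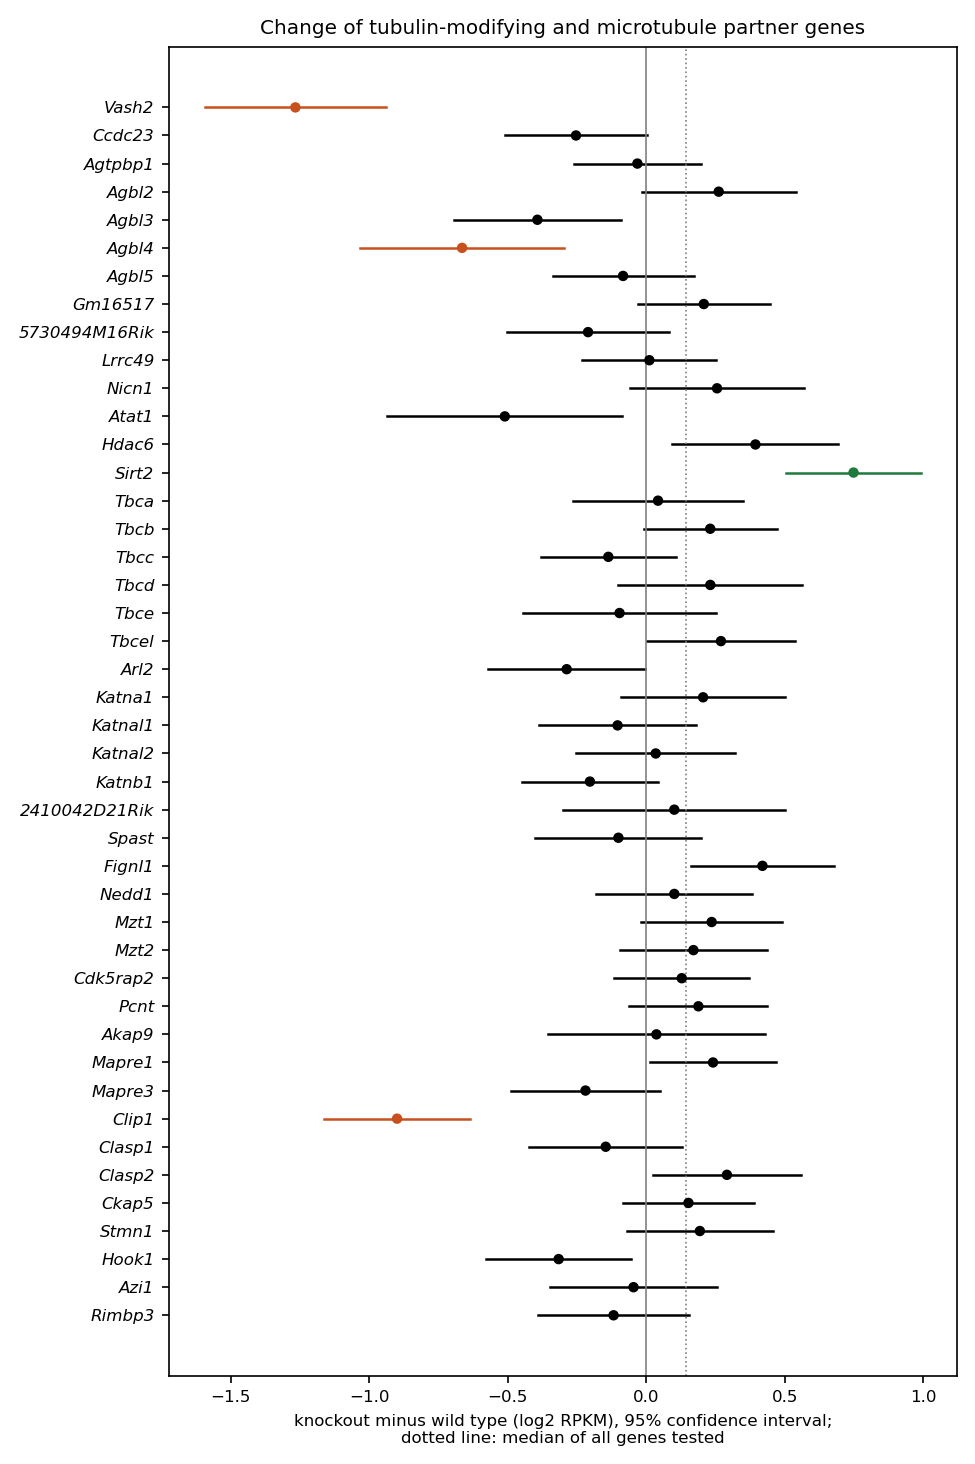
Change of the 44 tested partner genes (knockout minus wild type, log2 RPKM, horizontal axis) with 95% confidence intervals, genes that fell in orange and the gene that rose in green. Vash2, Clip1 and Agbl4 lie at -1.27, -0.90 and -0.67, and Sirt2 at 0.75.

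Each call on a member rests on 2 libraries a group, too few for an exact two-sided permutation test to go below a p of 0.333. Without wild type replicate 1, the adjusted p of the members that fell lay between 0.0749 (Ttll10) and 0.137 (Ttll8). Without wild type replicate 2 it was 0.0474 for Tuba4a and Tubb6, and 0.0571, 0.0532, 0.054, 0.1 and 0.1 for Ttll9, Ttll7, Ttll10, Ttll1 and Ttll8. The change of each of the 7 stayed below 0 in all of these, as it had to where the groups do not overlap, so this adds no support.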

How the data were processed

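Messenger RNA was sequenced from 4 libraries of whole testis, 2 wild type and 2 Adad2 knockout. Per the submitters' processing notes, bcl2fastq 2.17.1.14 and Bowtie2 were used with the mm9 genome. The counting tool, annotation and strand setting were not given in the sources used here. The authors deposited log2 RPKM values for 26127 entries, and the 59 (0.226%) without a gene name were dropped. Columns were matched to samples by group and number, and 0 columns were left unmapped; the authors' mean and difference columns were not used.

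Genes with a mean of at least 0 were tested with limma 3.58.1 (R 4.3.3, statmod 1.5.0), unpaired and two-sided, with intensity trend, robust estimation and no pseudocount. Depth was estimated from single-exon genes, whose low values are whole multiples of 1 read: 29400000 to 36900000 reads per library, with 93.5% to 95.8% of values up to 10 reads whole within 2%. Estimated reads use Gencode M21 exon lengths, matched by identifier for 38 of 38 members, and intervals on reads cover counting error only. On simulated data with 13414 genes, the test recovered 2% of genes shifted by 0.5 on the log2 scale, 46% of those shifted by 1 and 78% of those shifted by 2, with 2 false calls. The simulated noise was independent between libraries and few genes were shifted, whereas same-numbered libraries here deviated together (r = 0.331). These rates may therefore not hold for the data.

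The members, gene lists and tests were chosen with earlier results of these data known. The text names every member past the threshold, the highest member of each subfamily, the largest changes, members fixed for their known roles, and partner genes past the threshold. RefSeq promoter windows are on GRCm38.p6, and no coordinates were converted between builds. Alternatives were other filters, log2(RPKM + 1), quantile normalization, equal medians, limma without trend and robust estimation, a replicate block, and leaving out each library.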

Additional observations from a re-analysis of the deposited data

How the results depend on the processing

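Over all genes tested, 959 were lower and 163 higher. With no filter 97 were higher, with a filter at a mean of 2 there were 637 lower, and quantile normalization gave 245 higher. That filter raised the share of higher calls, and it gave 2 higher partner genes against 1, as did quantile normalization. Quantile normalization called 2 members higher (Tuba1b and Tubb5) against 0. Leaving out a library gave 0 to 1308 lower and 0 to 494 higher genes, 0 to 9 lower members, 0 to 5 lower partner genes and 0 to 3 higher partner genes. The 0 calls without wild type replicate 1 stand beside 1277 lower and 1080 higher genes at an unadjusted limma p under 0.05, and a lone library is assumed to vary like the other group. Same-numbered libraries deviated together (r = 0.331 across genes), but the labels do not say that numbers pair samples. With the replicate number as a block, 1477 genes were lower and 1837 higher, 4 members were higher (Ttll12, Tuba1b, Tubb5 and Tubgcp3), and 6 partner genes were lower and 4 higher; Ttll3 and Ttll13 also passed, and all 7 members called without the block were called. The 7 were also called with no filter, on the log2(RPKM + 1) scale, after quantile normalization, with equal medians and in plain limma; the filter at 2 left out Ttll7. The cause of these shifts was not tested. With the replicate block, Tuba8 missed the threshold (adjusted p = 0.193). Depth limits Ttll2, Tubb1 and Tubb4 most, and also Tubal3, Tubg2, Tubb2b and, in the knockout, Tuba8.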
